A study of Mus musculus with 10 samples.

Results

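The genes described here encode the fibroblast growth factor (FGF) ligands, their receptors and the families that restrain the ERK kinases acting downstream of them. They were chosen by symbol alone, as every measured gene named Fgf, Spry, Spred or Dusp followed by a number, or Fgfr1 to Fgfr4. They number 57 of the 18194 genes measured. These are 22 Fgf genes, 4 receptors, 4 Sprouty genes, 3 Spred genes and 24 dual-specificity phosphatase (Dusp) genes. The Fgf genes are called ligands below by symbol alone, and not all of them encode a receptor ligand. The arrays come from NG4 cells, a mouse embryonic stem (ES) cell line that was transfected with siRNA at plating and differentiated in retinoic acid. RNA was collected 48 h after transfection. Each of 5 groups has 2 arrays. Cells received siRNA against Socs3 (siSocs3, whose product damps LIF and STAT3 signalling), Sox17 (siSox17, an endoderm transcription factor), Fbxw7 (siFbxw7, the substrate-binding subunit of a ubiquitin ligase) or Rnf31 (siRnf31, a ubiquitin ligase of the linear chain type), and the controls received an siRNA with no target (siNonTarget). All groups share the line, the retinoic acid and the collection time.

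FGF ligands bind receptor tyrosine kinases together with heparan sulphate or Klotho co-receptors, and the activated receptor drives RAS, RAF, MEK and ERK in turn. ERK then induces genes that damp the same route, among them Sprouty genes and Dusp6. In mouse ES cells Fgf4 is the main ligand made by the cells themselves, and its signal through ERK moves cells out of the naive pluripotent state, which LIF and STAT3 maintain.

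Levels below are log2 intensities of 1 probe set per gene, the brightest on average, and they compare arrays for 1 gene but not 1 gene with another. Changes are differences of log2 group means with the standard error (SE) of a limma model over all 10 arrays, n = 2 arrays per group throughout. A gene was called when its p-value, adjusted by Benjamini-Hochberg over all 18194 genes, was under 0.05. The labels do not say that replicates came from separate cultures, so the p-values cover only the spread among these arrays, and that spread may be technical.

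The labels could not be checked on the targeted transcripts. Socs3 read 10.66 and 10.11 on the arrays labelled siSocs3, against 9.62 and 10.28 on the siNonTarget arrays, and was not lower (0.44 ± 0.24). Sox17 differed by 0.03 ± 0.53 in siSox17. The other 2 lay in the labelled direction, Rnf31 in siRnf31 (−0.40 ± 0.17, unadjusted p = 0.0385) and Fbxw7 in siFbxw7 (−0.25 ± 0.16). None of the 4 passed the test in its own group (adjusted p of 0.281 to 0.988). Group names here are therefore those of the labels, and each direction rests on them. The ES cell marker Pou5f1 read 11.1 to 12.63 on all 10 arrays. The summed intensity of 6 ES cell markers was 22900 to 23900 on arrays labelled siSocs3, 16500 to 19000 in siSox17, 13800 to 16400 in siFbxw7, 12200 to 17700 in siRnf31 and 11700 to 13500 in siNonTarget. The sum of 5 neural ectoderm markers was 627 to 784 in siSocs3, 1280 to 1320 in siSox17, 1150 to 1730 in siFbxw7, 1270 to 1460 in siRnf31 and 1540 to 2110 in siNonTarget. The sum of 7 fibroblast markers was 531 to 652 in siSocs3, against 967 to 1260 in siNonTarget. In siSox17, siFbxw7 and siRnf31 it was 543 to 693, 612 to 934 and 652 to 1410. The fibroblast markers did not fall together in siSocs3. Of the 7, 5 had estimates above 0 and 2 below, with a median of 0.004. The brightest, Col1a2, had the lowest estimate (−1.45) and weighed most in the sum. Trophectoderm markers summed to 6810 to 7880 in siSocs3, against 1970 to 7090 in siNonTarget, and 5 of the 6 had estimates above 0. Their largest term, Krt8, read 12.55 and 12.76, against 10.63 and 12.67. In siSox17, siFbxw7 and siRnf31 the sums were 5900 to 8250, 2740 to 5950 and 5610 to 6210. Extraembryonic endoderm markers summed to 1330 to 1460 in siSocs3, against 1610 to 1890 in siNonTarget. In siSox17, siFbxw7 and siRnf31 they summed to 1320 to 1860, 2300 to 3340 and 1360 to 1540. Between siSocs3 and siNonTarget, 4 of these 6 had estimates above 0 and 2, Sox7 and Lama1, below. Between siSocs3 and siNonTarget arrays, 3 of 6 ES cell markers were called higher and 4 of 5 neural markers lower. Of the rest, 1 of 7 fibroblast markers was called lower, 1 of 6 trophectoderm markers higher and 0 of 6 extraembryonic endoderm markers either way. Over all genes 3.59% were called higher and 5.66% lower. The marker calls were not retested with single arrays left out. No marker was at 0, since these intensities never reach it. Their part in the changes below was not tested, and in bulk RNA fewer cells of a type and less RNA per cell cannot be told apart. RNA integrity was read from the gap between 3' and 5' actin probe sets on the log2 scale. The gap was widest on siFbxw7 replicate 1 (0.60) and siNonTarget replicate 1 (0.50), and it lay between 0.21 and 0.29 elsewhere.

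In the comparison of siSocs3 with siNonTarget, 3 of the 57 genes were called (5.26%), against 9.26% of all genes. Fgf1 and Spry2 rose (2 genes, against 3.59% of all genes called higher) and Spred1 fell (1 gene, against 5.66% called lower). At an unadjusted p under 0.05 the count was 19 (10 higher and 9 lower, 33.3%), against 26.2% of all genes (12.1% higher and 14.1% lower). The arrays of the 2 groups did not overlap for 37 genes (64.9%), against 57.2% of all genes. The median log2 change was 0.01 over the 57 genes and 0.03 over all genes, and 1 of the 57 changed more than 2-fold. The call count rested on single arrays: without siNonTarget replicate 1, or without siSocs3 replicate 1, it was 0 of 57, and over all genes it was 313 and 63 instead of 1684. The siFbxw7 and siRnf31 arrays enter only through the shared spread. Leaving out any 1 of them also moved the call count, as it did the count over all genes.

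**Figure D1:**
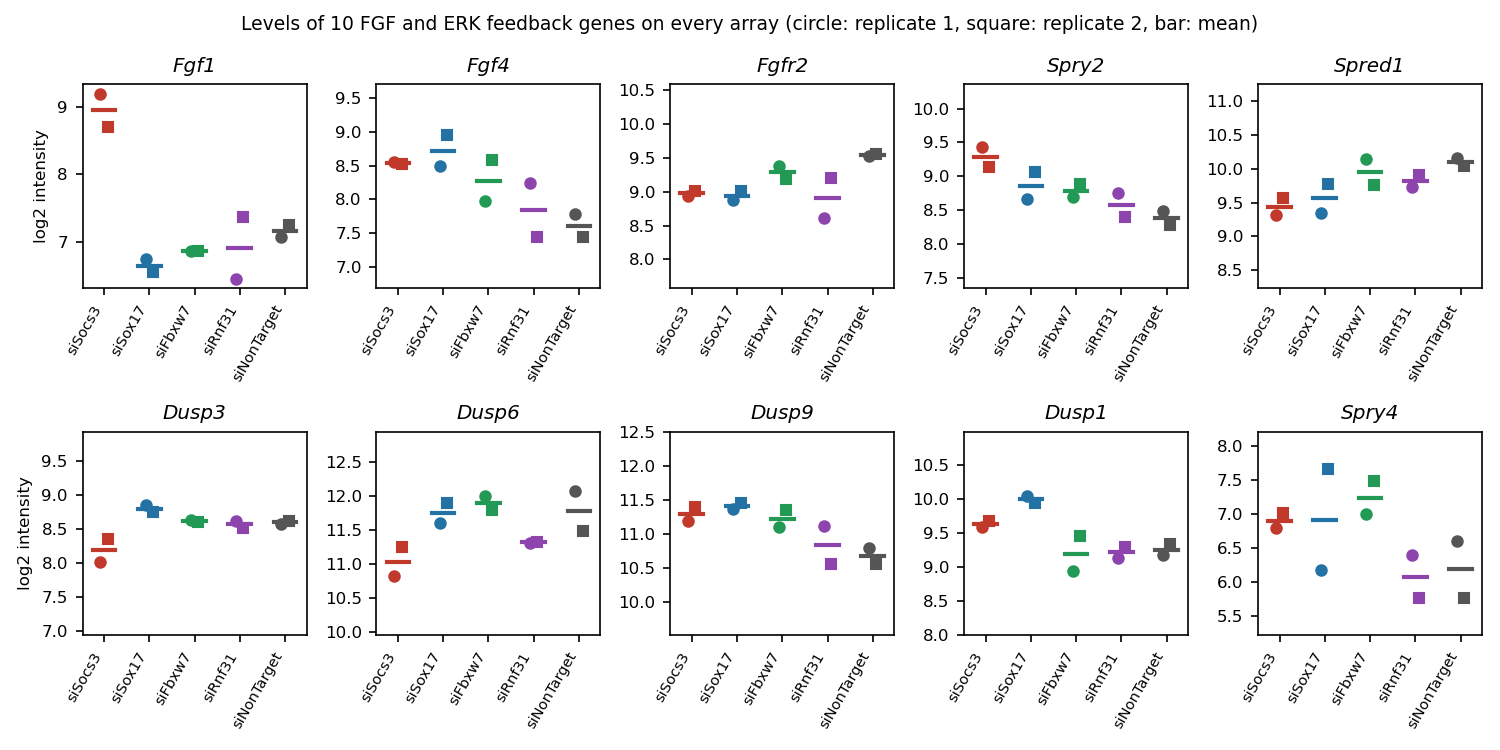
Levels of Fgf1, Fgf4, Fgfr2, Spry2, Spred1, Dusp3, Dusp6, Dusp9, Dusp1 and Spry4 on all 10 arrays. Each dot is 1 array, with the log2 intensity of the gene's brightest probe set on the vertical axis and the group on the horizontal axis. For Fgf1 and for Spry2 both siSocs3 arrays lie above all 8 other arrays.

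Among the ligands, Fgf1 was the gene that changed most. It encodes acidic FGF, which lacks a signal peptide and binds all FGF receptors. Its log2 level was 9.19 and 8.70 on the arrays labelled siSocs3, 6.74 and 6.55 in siSox17, 6.86 and 6.86 in siFbxw7, 6.45 and 7.37 in siRnf31, and 7.07 and 7.25 in siNonTarget. Both siSocs3 arrays stood above every other array. The rise over siNonTarget was 1.78 ± 0.27 (SE, n = 2), or 3.44-fold, with a 95% interval of 1.17 to 2.39 and an adjusted p of 0.00851 (limma). Leaving out siNonTarget replicate 1 gave 1.69 (adjusted p = 0.0533), and leaving out siSocs3 replicate 1 gave 1.53 (0.0984). The rise was carried by 1 of the gene's 3 probe sets. The second read 5.66 and 5.41 in siSocs3, against 6.11 and 4.96 in siNonTarget, a difference of −0.003 on the log2 scale. The third read 3.57 and 3.33 in siSocs3, against 4.16 and 3.29 in siNonTarget, a difference of −0.28. The mean of the 3 gave 0.50 (adjusted p = 0.225), so the call depends on which probe set stands for Fgf1.

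The ligands of the early embryo showed no called change. Fgf4 read 8.55 and 8.53 in siSocs3, 8.49 and 8.95 in siSox17, 7.97 and 8.58 in siFbxw7, 8.25 and 7.44 in siRnf31, and 7.78 and 7.45 in siNonTarget. The siSocs3, siSox17 and siFbxw7 arrays all lay above both siNonTarget arrays, and the siRnf31 arrays overlapped with them. The differences from siNonTarget were 0.92 ± 0.29 in siSocs3 (adjusted p = 0.0769), 1.10 ± 0.29 in siSox17 (0.143), 0.66 ± 0.29 in siFbxw7 (0.752) and 0.23 ± 0.29 in siRnf31 (0.872). Fgf5, a ligand of the primed epiblast, read 4.80 and 4.55 in siSocs3, against 4.75 and 4.46 in siNonTarget. Its difference was 0.07 ± 0.17, with a 95% interval of −0.31 to 0.45. Fgf8, a ligand of gastrulation and brain patterning, read 3.90 and 3.77 in siSocs3, against 4.10 and 3.74 in siNonTarget (−0.08 ± 0.14, adjusted p = 0.764). Fgf17, a relative of Fgf8, read 4.80 and 5.09 in siSocs3, against 4.83 and 4.88 in siNonTarget (0.10 ± 0.16, adjusted p = 0.761). Fgf15, a hormone-like ligand also made in the embryonic brain, read 6.35 and 6.13 in siSocs3, against 7.46 and 6.38 in siNonTarget, and its difference of −0.68 ± 0.36 did not pass (adjusted p = 0.272). Of the 22 ligands, 15 were among the dimmest 30% of all genes (mean log2 under 5.12). The median difference of the 22 was 0.07.

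None of the 4 receptors was called in siSocs3. Fgfr2, whose splice forms serve epithelial and mesenchymal tissue, read 8.94 and 9.01 in siSocs3, 8.87 and 9.01 in siSox17, 9.38 and 9.19 in siFbxw7, 8.61 and 9.20 in siRnf31, and 9.52 and 9.55 in siNonTarget. All 8 arrays with a targeted siRNA lay below both siNonTarget arrays. The differences were −0.56 ± 0.17 in siSocs3 (adjusted p = 0.0788), −0.59 ± 0.17 in siSox17 (0.164), −0.25 ± 0.17 in siFbxw7 and −0.63 ± 0.17 in siRnf31 (0.778), and these comparisons share their siNonTarget arrays. Fgfr1, the main receptor of Fgf4 signalling in ES cells, read 9.65 and 9.84 in siSocs3, against 10.15 and 9.95 in siNonTarget (−0.30 ± 0.14, adjusted p = 0.204). Fgfr3 read 6.25 and 6.46 in siSocs3, against 6.25 and 6.39 in siNonTarget (0.03 ± 0.17). Fgfr4 read 6.10 and 5.86 in siSocs3, against 5.88 and 5.79 in siNonTarget (0.15 ± 0.13).

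Sprouty proteins block the step between receptor and RAS or RAF, and Spred proteins recruit the RAS inactivator neurofibromin. The called members of the 2 families differed in direction. Spry2 read 9.43 and 9.14 in siSocs3, 8.66 and 9.06 in siSox17, 8.69 and 8.89 in siFbxw7, 8.76 and 8.40 in siRnf31, and 8.49 and 8.28 in siNonTarget. Both siSocs3 arrays were above all others. Spry2 rose by 0.90 ± 0.18 over siNonTarget (SE, n = 2, adjusted p = 0.0203), or 1.87-fold, and its other probe set gave 0.51 (adjusted p = 0.125). Without siNonTarget replicate 1 the Spry2 rise was 1.01 (adjusted p = 0.0627), without siNonTarget replicate 2 it was 0.80 (0.0733) and without siSocs3 replicate 1 it was 0.76 (0.174). Spred1 read 9.32 and 9.56 in siSocs3, 9.35 and 9.78 in siSox17, 10.14 and 9.76 in siFbxw7, 9.73 and 9.91 in siRnf31, and 10.16 and 10.04 in siNonTarget. Its siSocs3 arrays were below both siNonTarget arrays and overlapped with those of siSox17. Spred1 fell by 0.67 ± 0.18 against siNonTarget, 1.59-fold, with an adjusted p of 0.0498 that sits just under the threshold. That call ended when any 1 of the 4 compared arrays was left out (log2 differences of −0.78 to −0.55, adjusted p of 0.0938 to 0.289), and also without either siRnf31 array (0.0641). With each array centred on its median the difference was −0.57 (adjusted p = 0.0657). Of the 8 Spred1 probe sets, 7 lay below 0 (−1.01 to −0.21) and 1 at 0.02.

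The other members of both families did not pass. Spry1 read 7.69 and 7.89 in siSocs3, against 8.42 and 8.41 in siNonTarget (−0.63 ± 0.21, adjusted p = 0.0932). Spry4, an ERK-induced gene in mouse ES cells, read 6.79 and 7.02 in siSocs3, 6.17 and 7.67 in siSox17, 7.0 and 7.49 in siFbxw7, 6.40 and 5.76 in siRnf31, and 6.61 and 5.76 in siNonTarget. Its replicates lay up to 1.5 apart on the log2 scale, and its difference of 0.72 ± 0.46 in siSocs3 had an adjusted p of 0.362. Spred2 read 10.30 and 10.36 in siSocs3, against 10.73 and 10.61 in siNonTarget (−0.34 ± 0.11, adjusted p = 0.0932). Spred3 read 5.29 and 5.39 in siSocs3, against 6.26 and 5.63 in siNonTarget (−0.61 ± 0.30, adjusted p = 0.233). For all 3 Spred genes the siSocs3 and siNonTarget arrays did not overlap, with siSocs3 lower, as held for 26.7% of all genes. Spry3, which was dim, read 4.40 and 4.43 in siSocs3, against 4.80 and 4.73 in siNonTarget.

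**Figure D2:**
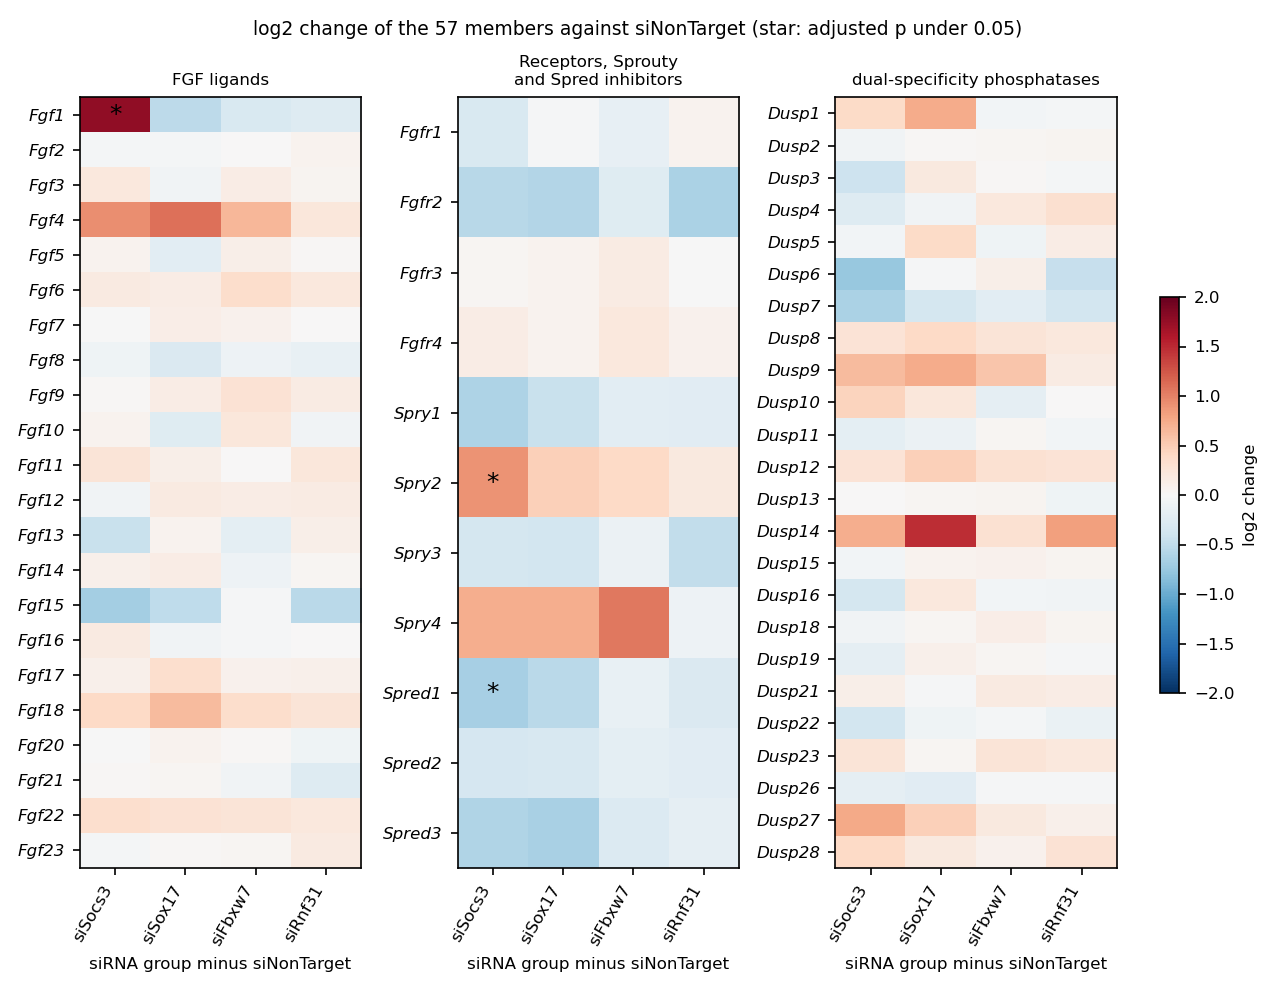
Log2 change of each of the 57 genes against siNonTarget in the 4 targeted groups, ordered by family. Rows are genes, columns are siRNA groups, the colour gives the log2 change (red higher, blue lower) and a star marks a called gene. Stars stand on Fgf1, Spry2 and Spred1 in siSocs3, and there are none in siSox17, siFbxw7 or siRnf31.

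The sequence before the start of transcription is shown for Spry2 and Spred1, which were called in opposite directions, for Dusp3, called against siSox17, and for Dusp1, an immediate-early gene. The bases are from RefSeq on GRCm38.p6, read 5′ to 3′ on the gene's strand. The windows are the 250 bases at chr14:105896820-105897069 (minus strand, Spry2), chr2:117120821-117121070 (plus, Spred1), chr11:101984792-101985041 (minus, Dusp3) and chr17:26508473-26508722 (minus, Dusp1). Capitals mark the GC box GGGCGG on either strand in the windows of Spred1 and Dusp3, and only the cyclic AMP response element TGACGTCA in the window of Dusp1. The window of Spry2 has no match and no capitals.
Spry2: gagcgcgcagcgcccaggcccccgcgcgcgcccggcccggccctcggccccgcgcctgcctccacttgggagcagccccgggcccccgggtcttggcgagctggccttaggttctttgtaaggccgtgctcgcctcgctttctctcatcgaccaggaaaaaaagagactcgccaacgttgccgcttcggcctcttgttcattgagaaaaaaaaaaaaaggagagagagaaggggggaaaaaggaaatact
Spred1: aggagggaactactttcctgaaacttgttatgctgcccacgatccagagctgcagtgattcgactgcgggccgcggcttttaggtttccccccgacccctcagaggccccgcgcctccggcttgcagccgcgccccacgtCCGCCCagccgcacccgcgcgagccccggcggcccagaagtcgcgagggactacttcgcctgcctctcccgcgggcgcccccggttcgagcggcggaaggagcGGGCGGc
Dusp3: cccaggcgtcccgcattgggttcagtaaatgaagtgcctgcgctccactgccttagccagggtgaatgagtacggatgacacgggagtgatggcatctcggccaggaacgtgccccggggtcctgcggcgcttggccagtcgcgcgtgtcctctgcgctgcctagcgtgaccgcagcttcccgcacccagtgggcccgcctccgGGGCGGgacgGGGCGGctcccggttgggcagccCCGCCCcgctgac
Dusp1: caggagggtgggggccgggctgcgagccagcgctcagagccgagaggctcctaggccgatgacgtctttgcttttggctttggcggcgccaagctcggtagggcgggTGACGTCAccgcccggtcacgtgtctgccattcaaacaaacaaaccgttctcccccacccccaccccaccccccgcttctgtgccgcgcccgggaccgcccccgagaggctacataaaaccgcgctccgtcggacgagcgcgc
The Spred1 window holds 2 GC boxes, the Dusp3 window 3 and the Dusp1 window 3, which are left in lower case there. Windows of 42 of the 57 genes were used, 52 windows in all, and 4 motifs were searched on both strands. The other 15 genes were not searched. Fgf1 and Spry4 were among them, left out before the search whether or not they had an entry. The comparison with all windows was not filtered in that way. The GC box was in 33 of the 52 windows (63.5%), against 32.7% of all 32851 windows of this length, and the median GC content was 61.8%, against 52.4%. The cyclic AMP response element was in 2 windows, those of Dusp1 and Dusp8 (3.85%, against 1.55%). The ETS site CCGGAAG, bound by a family of ERK-regulated factors, was in 1 window (1.92%, against 6.91%). The STAT site TTCCNGGAA was in 0 of 52 windows, against 0.913% of all windows. These are matches of letters within 250 bases only.

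None of the 24 Dusp genes was called in siSocs3 against siNonTarget, although the arrays of the 2 groups did not overlap for 18 of them (75%, against 57.2% of all genes). Many Dusp enzymes remove phosphate from MAP kinases, but not every gene of that name does, and not all of the MAP kinase phosphatases act on ERK. Dusp6, the cytoplasmic ERK phosphatase induced by FGF, read 10.82 and 11.25 in siSocs3, 11.61 and 11.90 in siSox17, 12.01 and 11.80 in siFbxw7, 11.31 and 11.33 in siRnf31, and 12.08 and 11.49 in siNonTarget. Both siSocs3 arrays were the lowest of the 10. The difference was −0.75 ± 0.21 and missed the threshold (adjusted p = 0.0583). With single arrays left out it ran from −1.05, without siNonTarget replicate 2 (adjusted p = 0.0297), to −0.46, without siNonTarget replicate 1, and its adjusted p reached 0.335 without siSocs3 replicate 1. Dusp9, another ERK phosphatase and one induced by BMP in ES cells, read 11.19 and 11.40 in siSocs3, 11.37 and 11.46 in siSox17, 11.10 and 11.35 in siFbxw7, 11.11 and 10.55 in siRnf31, and 10.79 and 10.55 in siNonTarget. All 6 arrays of siSocs3, siSox17 and siFbxw7 lay above both siNonTarget arrays. Its difference was 0.63 ± 0.19 in siSocs3 (adjusted p = 0.0673), 0.75 ± 0.19 in siSox17 (0.14) and 0.55 ± 0.19 in siFbxw7 (0.752).

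The nuclear phosphatases did not pass either. Dusp1, which acts on p38, JNK and ERK, read 9.59 and 9.67 in siSocs3, against 9.17 and 9.33 in siNonTarget (0.38 ± 0.16, adjusted p = 0.178). Dusp4 read 8.19 and 8.71 in siSocs3, against 8.35 and 9.07 in siNonTarget (−0.26 ± 0.32). Dusp5, specific for ERK, read 8.51 and 8.85 in siSocs3, against 8.57 and 8.90 in siNonTarget (−0.05 ± 0.18, adjusted p = 0.888). The changes of the 24 ran from −0.75 to 0.76 with a median of −0.06. At an unadjusted p under 0.05, 5 were higher and 5 lower (41.7%, against 26.2% of all genes).

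Beyond these 57 genes, 3 lists of other pathway genes were set beside them. In siSocs3 against siNonTarget, 4 of 20 co-receptor and extracellular genes fell and 0 rose: the heparan sulphate sulphotransferase Hs6st2 (−1.35 ± 0.23, adjusted p = 0.0118), the membrane protein Flrt3 (−1.03 ± 0.21, 0.0203), the heparan sulphate polymerase Ext1 (−0.80 ± 0.17, 0.0223) and the sulphatase Sulf1 (−0.60 ± 0.15, 0.0395). Of 20 adaptor and RAS to ERK genes, 4 fell and 0 rose: the kinase Braf (−0.71 ± 0.14, 0.0171), the RAS activators Sos1 (−0.77 ± 0.15, 0.0181) and Sos2 (−0.79 ± 0.16, 0.0225), and Nras (−0.48 ± 0.11, 0.0286). Of 24 ERK-induced and ETS-family genes, 2 rose, the ETS repressor Erf (0.68 ± 0.14, 0.0189) and the immediate-early factor Egr1 (0.52 ± 0.14, 0.0485), and 1 fell, Phlda1 (−0.62 ± 0.15, 0.0356). List medians were −0.30, −0.20 and 0.19, against 0.03 over all genes, and called shares of 20%, 20% and 12.5% stood beside 9.26% of all genes. Without siSocs3 replicate 1, and likewise without siNonTarget replicate 1, no gene of the first 2 lists was called lower. Most calls over all genes ended in these settings too, so the losses are not particular to the lists. Flrt3, Sulf1 and Nras also lost their calls without siSocs3 replicate 2 and without siNonTarget replicate 2. Sos1 and Braf lost theirs without siSocs3 replicate 2, and Sos2 without siNonTarget replicate 2. Fewer genes were called over all in both settings. Erf lost its call without either siSocs3 array or without siNonTarget replicate 2 (adjusted p of 0.0588 to 0.135), and Egr1 and Phlda1 lost theirs without any 1 of the siSocs3, siNonTarget or siSox17 arrays. With all probe sets of a gene averaged, Ext1 was −0.32 (adjusted p = 0.353), Sulf1 −0.38 (0.0699), Sos1 −0.12 (0.452), Braf −0.47 (0.105) and Nras −0.27 (0.0943). In that setting 2 genes of each of the first 2 lists were called lower, beside 6.93% of all genes called either way. The RAS to ERK count then included a gene not called above. Without both arrays of wide actin gap, Flrt3, Sulf1, Ext1, Nras and Braf lost their calls, and fewer genes were called over all. In siSox17, siFbxw7 and siRnf31 no gene of the 3 lists was called.

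**Figure D3:**
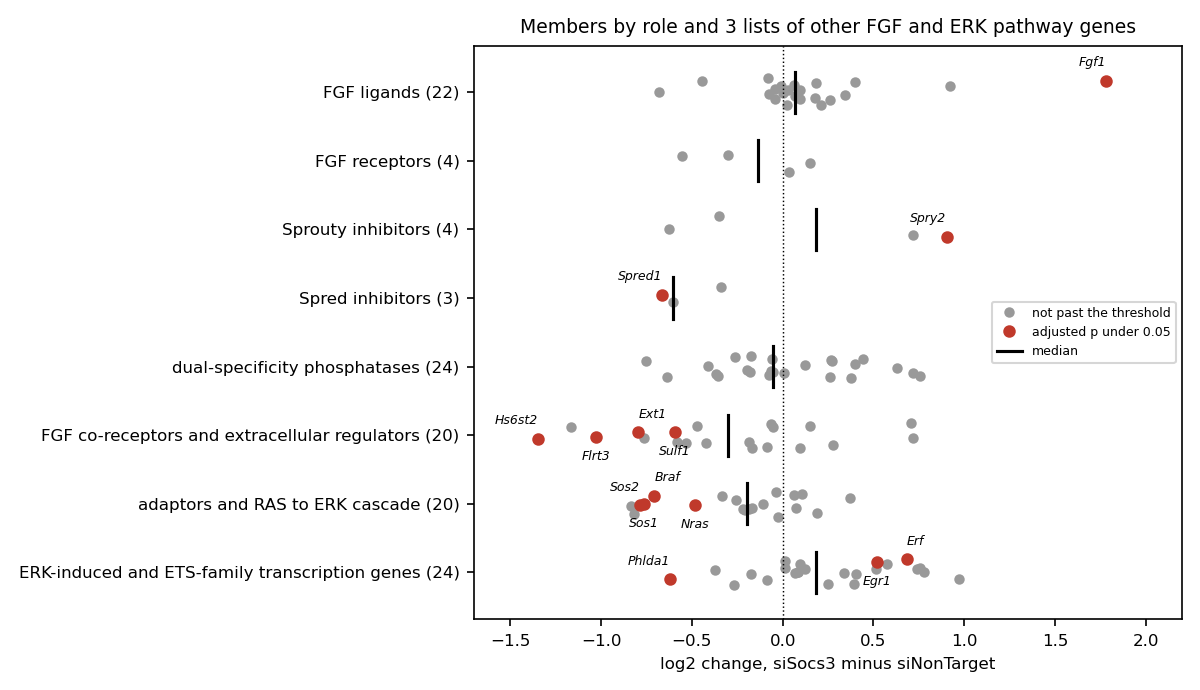
Log2 change in siSocs3 against siNonTarget (horizontal axis) for the 57 genes by family and for the 3 pathway lists, 1 point per gene, with list medians as bars and called genes named in red. Called genes of the co-receptor list and the RAS to ERK list lie below 0, and the ERK-induced list has 2 above and 1 below.

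The other 3 siRNAs gave no called change among the 57 genes, against 0.0055% of all genes in siSox17 (1 gene), 0% in siFbxw7 and 0% in siRnf31 (limma). At an unadjusted p under 0.05 they gave 12 genes in siSox17 (21.1%, against 17.3% of all genes), 7 in siFbxw7 (12.3%, against 6.45%) and 4 in siRnf31 (7.02%, against 5.87%). In siSox17 the 3 smallest p belonged to Dusp genes. Dusp1 read 10.05 and 9.94 in siSox17, against 9.17 and 9.33 in siNonTarget (0.74 ± 0.16, adjusted p = 0.138), and its siSox17 arrays were the highest of the 10. It was called, as the 1 gene of the 57, when either siFbxw7 array was left out (against 1.29% of all genes). Dusp14, a small phosphatase of MAP kinases, read 9.80 and 9.63 in siSox17, against 7.77 and 8.70 in siNonTarget (1.48 ± 0.38, adjusted p = 0.143). Dusp9 is given above.

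In siFbxw7 the smallest p belonged to Fgf6, a ligand of muscle, which read 4.09 and 4.15 in siFbxw7, against 3.76 and 3.76 in siNonTarget (0.36 ± 0.09, adjusted p = 0.752), near the bottom of the scale. Dusp9 and Fgf9 followed. Fgf9, a ligand of lung and gonad development, read 5.76 and 6.04 in siFbxw7, against 5.63 and 5.59 in siNonTarget. Its difference was 0.29 (unadjusted p = 0.0457), and 0.15 to 0.43 with single arrays left out. Spry4 differed by 1.06 ± 0.46 in siFbxw7 (adjusted p = 0.752), and its siFbxw7 arrays lay above both siNonTarget arrays. In siRnf31 the smallest p belonged to Fgfr2, given above, then to Spry3 and Fgf6. Spry3 read 3.94 and 4.61 in siRnf31, against 4.80 and 4.73 in siNonTarget (−0.49 ± 0.19, unadjusted p = 0.0312), and its difference ran from −0.82 to −0.16 with single arrays left out. For Fgf6 the difference was 0.22 ± 0.09 (unadjusted p = 0.0374).

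Set directly against the other targeted groups, the siSocs3 arrays differed in Fgf1 each time. These 3 comparisons share the siSocs3 arrays. Fgf1 was 2.30 ± 0.27 higher than in siSox17 (4.93-fold, adjusted p = 0.00325), 2.08 ± 0.27 higher than in siFbxw7 (4.23-fold, 0.00506) and 2.04 ± 0.27 higher than in siRnf31 (4.11-fold, 0.00975). Its other 2 probe sets differed by −0.46 to 0.63 in these comparisons. With the mean of its probe sets Fgf1 was called in none of the 3 (adjusted p of 0.132 to 0.224), and without siSocs3 replicate 1 it was not called against siFbxw7 (1.83, 0.0675) or siRnf31 (1.79, 0.119). Against siSox17, 2 of 57 genes were called (3.51%), against 2.61% of all genes. The second was Dusp3, a small phosphatase that acts on ERK and JNK, which read 8.02 and 8.36 in siSocs3, against 8.85 and 8.75 in siSox17, and fell by 0.61 ± 0.12 (adjusted p = 0.0371). Its other probe sets gave −0.29 and −0.23, and the Dusp3 call ended without siSocs3 replicate 1 (adjusted p = 0.284), without siSox17 replicate 1 (0.232), without siSox17 replicate 2 (0.132) and without either siRnf31 array (0.0534). Against siFbxw7 and against siRnf31, 1 of 57 was called (1.75%), against 3.51% and 2.13% of all genes. The siFbxw7 count was 4 without siFbxw7 replicate 2 (against 4.94% of all genes), 2 without either siNonTarget array (3.88%) and 0 without siSocs3 replicate 1 (0.445%). Spry2 was 0.43 above siSox17 (adjusted p = 0.27), 0.50 above siFbxw7 (0.184) and 0.70 above siRnf31 (0.0908), none of which passed.

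**Figure D4:**
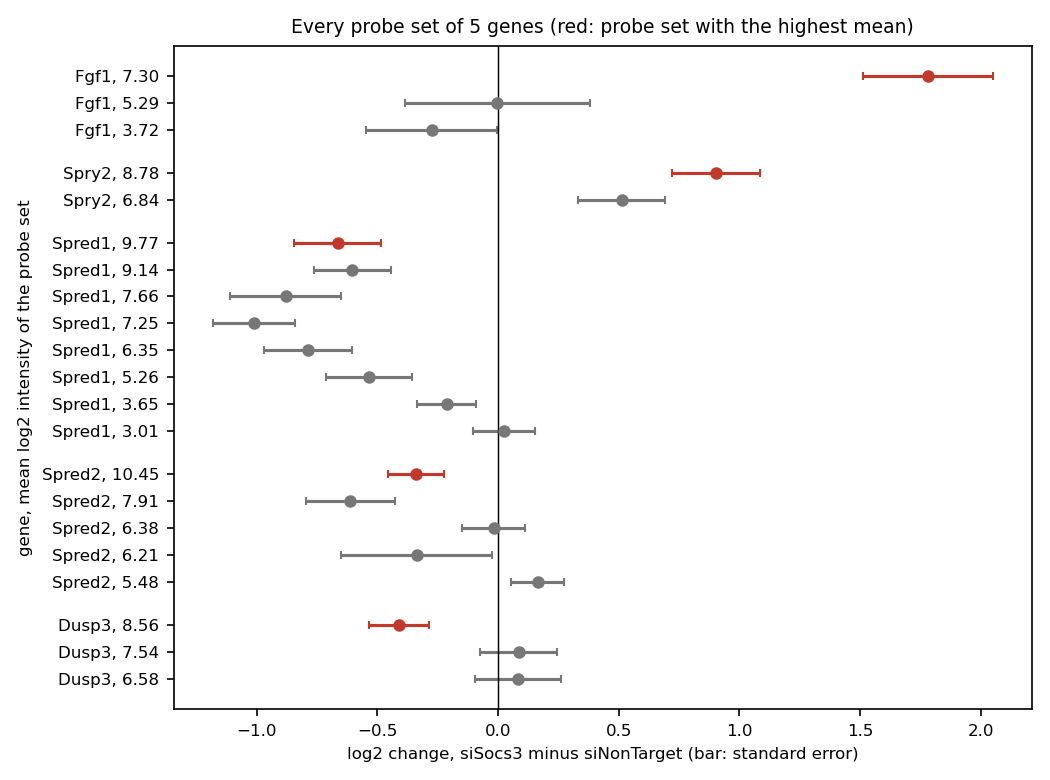
Log2 change in siSocs3 against siNonTarget for every probe set of Fgf1, Spry2, Spred1, Spred2 and Dusp3, 1 row each with its mean log2 intensity, the bar giving the SE and red the brightest probe set of a gene. The brightest Fgf1 probe set lies at 1.78 and the other 2 lie below 0 (−0.003 and −0.28), while 7 of 8 Spred1 probe sets lie below 0.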

How the data were processed

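Expression was measured on 10 Affymetrix arrays of 45101 probe sets, from 5 ng of amplified total RNA per the labels. Per the submitters' processing notes the deposited intensities come from RMA, which removes background, makes array distributions alike and sums up the probes of a set. Its version is not stated in the labels. The deposited intensities are linear (5.05 to 31606.3, array medians 46.39 to 47.95), and log2 of the authors' values was used. RMA hides a shift common to most genes.

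The platform annotation gave 34958 probe sets 1 symbol. Those with several symbols (932) were not used, and 9211 have no entry in it and stay unnamed. The brightest probe set on average stood for each of 18194 genes, and the 57 genes described hold 118 probe sets.

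All 5 groups entered one limma model (version 3.58.1, R 4.3.3), with eBayes moderation on 5 residual and 3.98 prior degrees of freedom. Tests were two-sided and adjusted by Benjamini-Hochberg over all genes of a contrast. Between 2 groups of 2 arrays, no exact permutation test can reach 0.05, so their number limits precision. The model was also run on simulated data with independent errors on every array. That run cannot show how the model behaves if replicates are technical or arrays share a factor. The genes and lists were chosen with earlier results of these data known. Named were genes called in any contrast, the 3 smallest p of a siNonTarget contrast with none called, a fixed set of FGF pathway genes, and called genes of the pathway lists. Spred2, Spred3 and Spry3 were named beyond that rule, after their values were seen. Alternatives were a replicate block, 2 groups alone, quantile and median scaling, a filter on dim genes, another prior, other probe sets, leaving out each array, and leaving out both arrays with a wide actin gap. Those for the pathway lists were added after seeing the data. Figures used matplotlib 3.10.9.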

Additional observations from a re-analysis of the deposited data

How the results depend on the processing

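Counts of called genes among the 57 moved most for siSocs3 against siNonTarget: 5 with median centring (10.1% of all genes called), 1 without both arrays of wide actin gap (4.72%), 7 with the 2 groups alone (7.22%), and 0 to 5 with single arrays left out (0.346% to 11.4%). Against siSox17 the count was 0 with the mean of probe sets (2.37% of all genes called). It was 1 with every probe set tested alone (500 of all 34958 probe sets called). It also moved with single arrays left out. Against siFbxw7 it was 0 with the mean of probe sets, 2 with every probe set and 0 to 4 with arrays left out. Beside the siFbxw7 counts stood 2.99% of all genes with the mean of probe sets, and 766 of all 34958 probe sets tested alone. The shares with arrays left out are given in the Results. Against siRnf31 the count was 0 with the mean of probe sets (1.79% of all genes), and it moved with arrays left out. The siSox17 count against siNonTarget moved with arrays left out, and that of siFbxw7 and siRnf31 did not. The causes were not tested.

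With the replicate number as a block, the count for siSocs3 against siNonTarget was 3 (1517 of all genes, 8.34%), with Dusp27 in and Spred1 out (adjusted p = 0.0655). Against siSox17 it was 1 (2.25% of all genes). The difference between replicates was correlated over genes for each of 10 group pairs. The correlation exceeded 0.1 in 1 pair, siNonTarget with siFbxw7 (r = 0.42), whose replicate 1 arrays had the widest actin gaps. The other pairs ran from −0.26 to 0.09. The numbers thus show no pairing shared by all groups, and a factor common to siNonTarget and siFbxw7 was not tested.

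Of 83 gene results, 18 were called, and only those 18 could lose a call. Under 1584 alternatives, 1429 kept direction and side of the threshold, which includes uncalled results that stayed uncalled. The 1429 are therefore not a measure of how many calls held. Of the other alternatives, 104 lost the call, 32 gained one and 19 turned sign, each of the 19 on a single other probe set. Those against siNonTarget in siSocs3 were Dusp3 (0.085 and 0.083), Dusp7 (0.006), Fgf1 (−0.003 and −0.276), Spred1 (0.023) and Spred2 (0.164), and in siSox17 Spred1 (0.125) and Spred2 (0.165 and 0.058). For siSocs3 against siSox17 they were Fgf1 (−0.463) and Fgf3 (−0.1); against siFbxw7, Dusp10 (−0.054), Dusp3 (0.011 and 0.117), Fgf1 (−0.383) and Spred1 (0.057); and against siRnf31, Dusp3 (0.124) and Fgf1 (−0.212).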

Other observations

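Replicates differed most for Spry4, Dusp14 and Fgf15 among the 57 genes, with a within-group SD of 0.607, 0.489 and 0.474 on the log2 scale.

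Etv4, an ETS factor induced by FGF signalling and named here after its values were seen, had the highest estimate of the ERK-induced list in siSocs3 against siNonTarget, at 0.97 ± 0.28 (SE, n = 2), and did not pass (limma adjusted p = 0.0599). In siSox17 its difference was 0.84 ± 0.28 (0.183), in siFbxw7 0.68 ± 0.28 (0.752) and in siRnf31 0.04 ± 0.28.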
